A study of Mus musculus with 45 samples.

Results

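Gene expression in the nucleus accumbens (NAC) was compared between mice given chronic intermittent ethanol (CIE) and mice given air (Ctrl), with tissue taken 72 h after the last chamber session. The members were the arrays whose titles give that sacrifice time, 5 CIE and 6 Ctrl arrays, or 11 of the 45 arrays in the series. Each array held total RNA of 1 adult male C57BL/6J mouse, with no pooling. For CIE, mice were injected with ethanol (1.6 g/kg) plus pyrazole (1 mmol/kg), which blocks alcohol dehydrogenase, and housed in vapor chambers at 10 to 13 mg of ethanol per l of air. Ctrl mice were injected with saline plus pyrazole at that dose and housed in air chambers, so that pyrazole and handling were common to both groups. Sessions lasted 16 h per day for 4 days, followed by 7 days of abstinence, over 4 cycles. The other arrays, from both treatments, came from mice sacrificed at 0 h, at 8 h or after 7 d. They entered the same fit, where they share in the estimate of spread, and the 72 h change was tested against theirs.

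The nucleus accumbens is the ventral part of the striatum and a target of midbrain dopamine neurons. Most of its neurons are medium spiny neurons (MSN), GABAergic cells that fall into a D1 class carrying Drd1 and prodynorphin and a D2 class carrying Drd2 and proenkephalin. Glutamate reaches them from cortex, amygdala, thalamus and hippocampus, and glia, vessels and the neighbouring septum, cortex and ventricle can enter a dissected punch. In rodents the days after ethanol withdrawal are known for altered glutamate and dopamine signalling in this region, for stress peptide activity and for later increases in drinking.

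Levels are log2 values of a probeset. A change is the difference of group means at 72 h, positive where CIE was higher, given with its standard error (SE) from limma. Arrays carry no count depth, so the number of mice limits the precision. All 45 array medians lay between 6.94 and 6.96. The labels name no batch. Arrays were placed in 6 sets by values that were equal in 10 to 57 probesets within a set and in at most 1 between sets, and 1 of the 45 arrays fell in none. Of these sets 5 hold 1 CIE and 1 Ctrl array of the 72 h groups, while Ctrl mouse 44 had no CIE partner. No label gives these sets, and the batches in which the arrays were hybridized may have been other ones. The file holds no call of detection, and levels of about 4 to 5 may lie near the background of these arrays.

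No probeset passed the test between CIE and Ctrl at 72 h. In limma with Benjamini-Hochberg adjustment over 45037 probesets, 0 (0%) passed an adjusted p of 0.01 and 0 passed 0.05, and the smallest adjusted p was 0.673. At an unadjusted p under 0.05 there were 3242 probesets (7.2%), 1482 of them higher in CIE (3.29%) and 1760 lower (3.91%). The same fit called 717 probesets at 0 h (1.59%), 28 at 8 h (0.0622%) and 0 at 7 d, where 1056 had an unadjusted p under 0.05 (2.34%). With arrays weighted by their own residual spread (arrayWeights), 20 probesets (0.0444%) passed 0.01 at 72 h, 3 of them higher (0.00666%) and 17 lower in CIE, and 1191 (2.64%) passed 0.05. Under every other setting tried, 0 probesets passed either threshold.

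The intervals bound how large a change could have been missed. The median width of the 95% interval on each side was 0.16 on the log2 scale, or 1.12-fold, and for 93.0% of probesets the whole interval lay within 1.5-fold of no change. Among the 18193 genes taken at their brightest probeset, the one with the highest mean over all arrays, that share was 96.4%. The median change was 0.02 over all probesets and 0.03 over the brightest probesets, where 12306 of 18193 genes (67.6%) were higher in CIE. Only 15 of these genes had a change above 1 in size. Thus most genes were bounded tightly, and a small set varied too much among mice to be bounded.

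The 24 genes named for the smallest unadjusted p, 12 higher and 12 lower in CIE, had p of 6.46e-05 to 0.000947 and all had an adjusted p of 0.673 (limma). Their changes were small, 0.14 to 0.77 in size. The groups did not overlap in 12 of them, against 412 of all 45037 probesets (0.915%), of which 237 had CIE above (0.526%) and 175 below (0.389%). Among brightest probesets there were 135 (0.742%), 116 with CIE above (0.638%) and 19 below (0.104%). The 24 genes were selected by this contrast, so their separation is a description. Hrh2, the histamine H2 receptor, had levels in Ctrl mice from 6.14 to 6.48 with a median of 6.23, and in CIE mice 3, 29, 33, 61 and 63 of 6.57, 6.65, 6.52, 6.45 and 6.61. A single Ctrl mouse, number 6, reached into the CIE range. The change was 0.28 (SE 0.06), and CIE was higher in 5 of 5 sets. The Ctrl mean of 6.28 lay below the 6.39 to 6.58 of the 6 groups at other times, and the CIE mean of 6.56 among them. Gtf2a1, a subunit of the general transcription factor TFIIA, ran from 9.60 to 9.82 in Ctrl with a median of 9.71, and stood at 9.97, 9.87, 9.87, 10.03 and 10.03 in CIE. The groups did not overlap, with a change of 0.24 (SE 0.06). Here the CIE mean of 9.95 lay above the 9.63 to 9.84 of the groups at other times, and the Ctrl mean of 9.71 among them. Recql, a DNA helicase, was higher by 0.30 (SE 0.08) and Kpna1, an importin of nuclear proteins, by 0.22 at its probeset of smallest p.

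Among the lower genes, Plcb4, a phospholipase C that acts downstream of Gq-coupled receptors, had Ctrl levels of 5.65 to 6.15 with a median of 5.79 and CIE levels of 5.13, 5.24, 5.44, 5.23 and 5.34. Every CIE mouse was below every Ctrl mouse, by 0.55 in the mean (SE 0.13). The groups at other times averaged 5.49 to 5.69, between the 5.83 of Ctrl and the 5.28 of CIE at 72 h. Tet1, which oxidises methylated cytosine in DNA, had Ctrl levels of 7.19 to 7.54 with a median of 7.31 and CIE levels of 6.96, 6.94, 6.83, 6.80 and 6.84, again without overlap. Its change was -0.47 (SE 0.11). The Ctrl mean of 7.34 lay above the 6.78 to 7.12 of the groups at other times, and the CIE mean of 6.87 among them. Gnai1, an inhibitory G protein subunit, had a change of -0.45 (SE 0.12), Ugcg, which makes glucosylceramide, -0.65 (SE 0.17), and Arid4b, a component of a histone deacetylase complex, -0.77 (SE 0.18). With arrayWeights, Ugcg, Usp36, Tet1, Plcb4 and Arid4b were among the genes called lower and Hrh2 and Gtf2a1 among those called higher. All of these lower genes were called at a probeset other than the brightest of the gene, and Hrh2 and Gtf2a1 at the brightest. The weights were 0.77, 0.78 and 0.71 for Ctrl mice 6, 34 and 52, and 1.55, 2.01 and 1.88 for Ctrl mice 24, 44 and 68. In CIE mice they ran from 0.91 to 1.95, so the calls depend on which mice count most.

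Most of these lower genes were measured by a brighter probeset too, and there the change was smaller. Of the 12 lower genes, 11 were named at a probeset that was not the brightest of its gene, and at the brightest probeset the change was under 0.1 in size for 10 of the 11, with a range of -0.09 to 0.15. Tet1 had a change of 0.00 (SE 0.09) at its brightest probeset, with Ctrl levels of 8.14 to 8.56 and CIE levels of 8.18, 8.18, 8.27, 8.30 and 8.57. Plcb4 had -0.09 (SE 0.11) at its brightest, Arid4b 0.06, Ugcg 0.10 and Gnai1 0.01. The exception among the lower genes was Anpep, an aminopeptidase of pericytes and other cells, named at its brightest probeset with a change of -0.21 (SE 0.05) and no overlap between groups, at levels of 3.96 to 4.32 near the bottom of the scale. Of the 12 higher genes, 6 were named at the brightest probeset, Hrh2 and Gtf2a1 included. For the other 6 the brightest probeset was higher in 3 and lower in 3. Syn2, a synaptic vesicle protein, was higher by 0.32 (SE 0.08) at the named probeset and lower by 0.32 (SE 0.19) at the brightest.

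A similar split was seen across the whole table. At an unadjusted p under 0.05, the brightest probesets gave 671 genes higher in CIE (3.69%) and 159 lower (0.874%), or 830 in all (4.56%), while the 16752 other probesets of the same genes gave 513 higher (3.06%) and 1046 lower (6.24%), or 1559 in all (9.31%). Of the 40 genes with the largest change in size, a list drawn up after the values were seen, 32 were lower and 31 of these were at a probeset other than the brightest, whereas 7 of the 8 higher genes were at the brightest.

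To see which mice carried this, the 50 pairs of probesets of a gene that moved apart most among mice of the same group were taken from 4946 pairs, also a choice made after the values were seen. The dimmer probeset was lower in CIE in 49 of 50 pairs, with a median of -0.95, and the brightest probeset in 24 of 50, with a median of 0.00. Malat1, a nuclear noncoding RNA, had a change of -1.32 (SE 0.68) at the dimmer and -0.03 (SE 0.06) at the brightest probeset. Gad2, which makes GABA, had -1.31 and 0.01, Slc1a2, the astrocytic glutamate transporter, -1.16 and -0.05, and Syt1, a calcium sensor of transmitter release, -0.95 and 0.02. The mean distance of the 50 dimmer probesets from their brightest partners was -1.90, -2.17, -1.73 and -1.97 in Ctrl mice 24, 44, 52 and 68, -3.49 and -3.47 in Ctrl mice 6 and 34, and -2.84, -3.33, -3.10, -3.59 and -3.74 in CIE mice 3, 29, 33, 61 and 63. Thus 4 of the 6 Ctrl mice lay above every CIE mouse and the other 2 lay among the CIE mice. In 40 of the 50 pairs these 4 Ctrl mice were all above every CIE mouse. The 4 mice were picked by the mean over these same pairs, so this count describes and adds no support. The 34 arrays of the other times ran from -4.98 to -1.62, so that both 72 h groups lay inside the range of the series. Within the sets of tied arrays the difference was below 0 in 3 of 5. With this distance as a covariate, 1768 probesets had an unadjusted p under 0.05 and 0 an adjusted p of 0.05 or less, and the median change over all probesets was -0.0007. What sets the distance apart among mice was not tested.

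**Figure D1:**
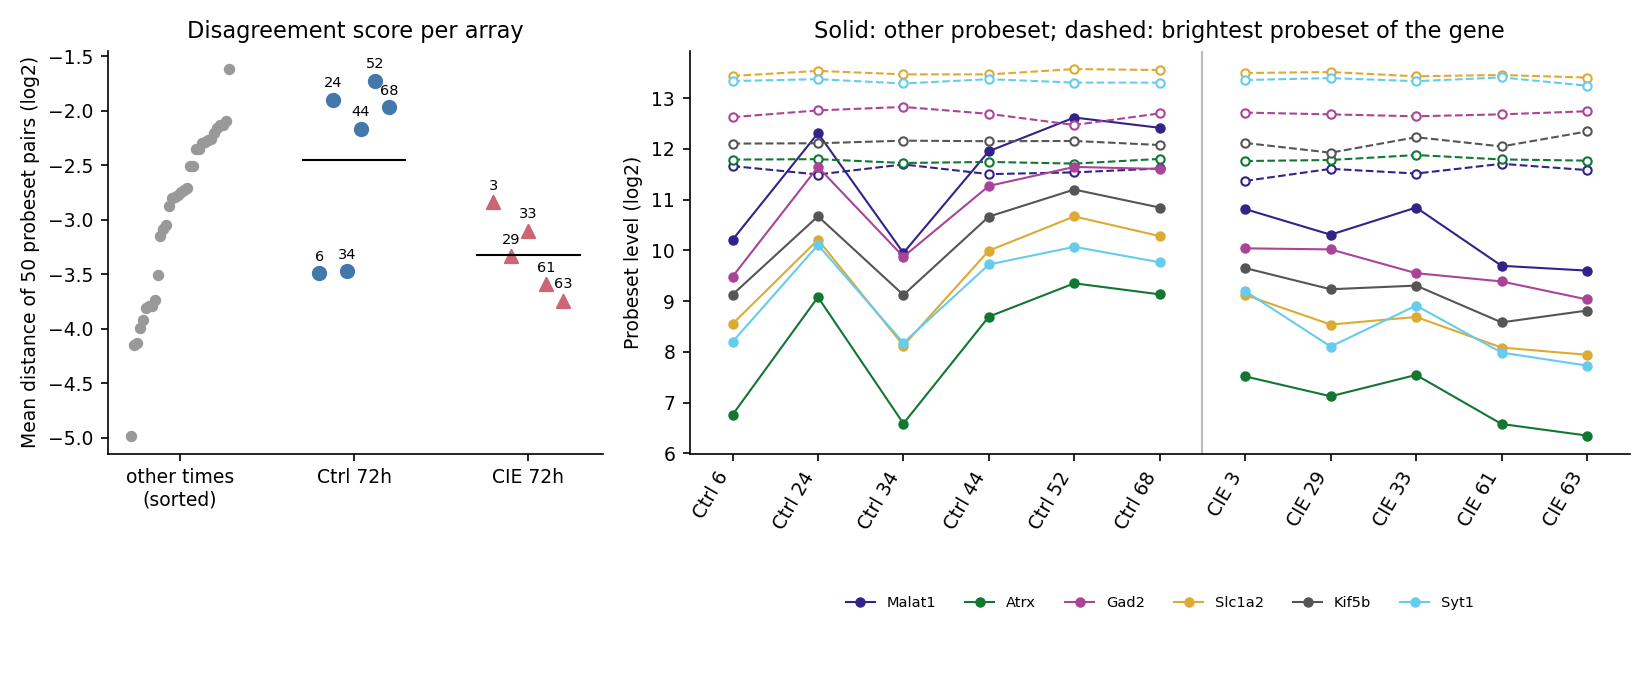
Left, mean distance in log2 units of 50 dimmer probesets from the brightest probeset of the same gene, 1 point per array, with mouse numbers at 72 h and bars at the group means (Ctrl -2.45, CIE -3.32). Right, log2 levels of 6 of these genes in the 11 arrays at 72 h, where the dimmer probeset (solid) is high in Ctrl mice 24, 44, 52 and 68 and the brightest (dashed) is level across mice.

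The tissue markers placed the samples in the striatum. Genes common to both classes of medium spiny neuron had a mean level over the list of 11.71 to 12.02 in Ctrl mice and 11.84 to 11.99 in CIE mice. Ppp1r1b (DARPP-32), which integrates dopamine and glutamate signals in these neurons, had Ctrl levels of 12 to 12.34 with a median of 12.19 and CIE levels of 12.19, 12.27, 12.38, 12.08 and 12.15. The groups overlapped fully, with a change of 0.03 (SE 0.15) and an interval of -0.28 to 0.34. Of the 19 shared MSN markers measured, 17 were higher (89.5%, beside 67.6% of all genes) and 2 lower. Their median was 0.04 against 0.03 over all genes, and all 19 intervals lay within 1.5-fold. In bulk tissue fewer cells of a type and less RNA per cell cannot be told apart.

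Genes of both output classes had small changes. Drd1, the receptor of the D1 class, had Ctrl levels of 12.49 to 12.73 with a median of 12.59 and CIE levels of 12.68, 12.68, 12.69, 12.58 and 12.60, a change of 0.05 (interval -0.15 to 0.24). Pdyn, the dynorphin precursor, differed by 0.06 (interval -0.23 to 0.35). Drd2, the receptor of the D2 class, had Ctrl levels of 9.75 to 10.48 with a median of 10.23 and CIE levels of 10.42, 10.48, 10.17, 10.43 and 10.23. It was the least tightly bounded of these, at 0.16 (interval -0.17 to 0.49), and its lowest value was in Ctrl mouse 52. Penk, the enkephalin precursor, differed by 0.05 (interval -0.12 to 0.22). Eya1, a transcription cofactor on the D1 list, was higher by 0.38 (SE 0.13, adjusted p = 0.673 in limma), with CIE higher in 5 of 5 sets.

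**Figure D2:**
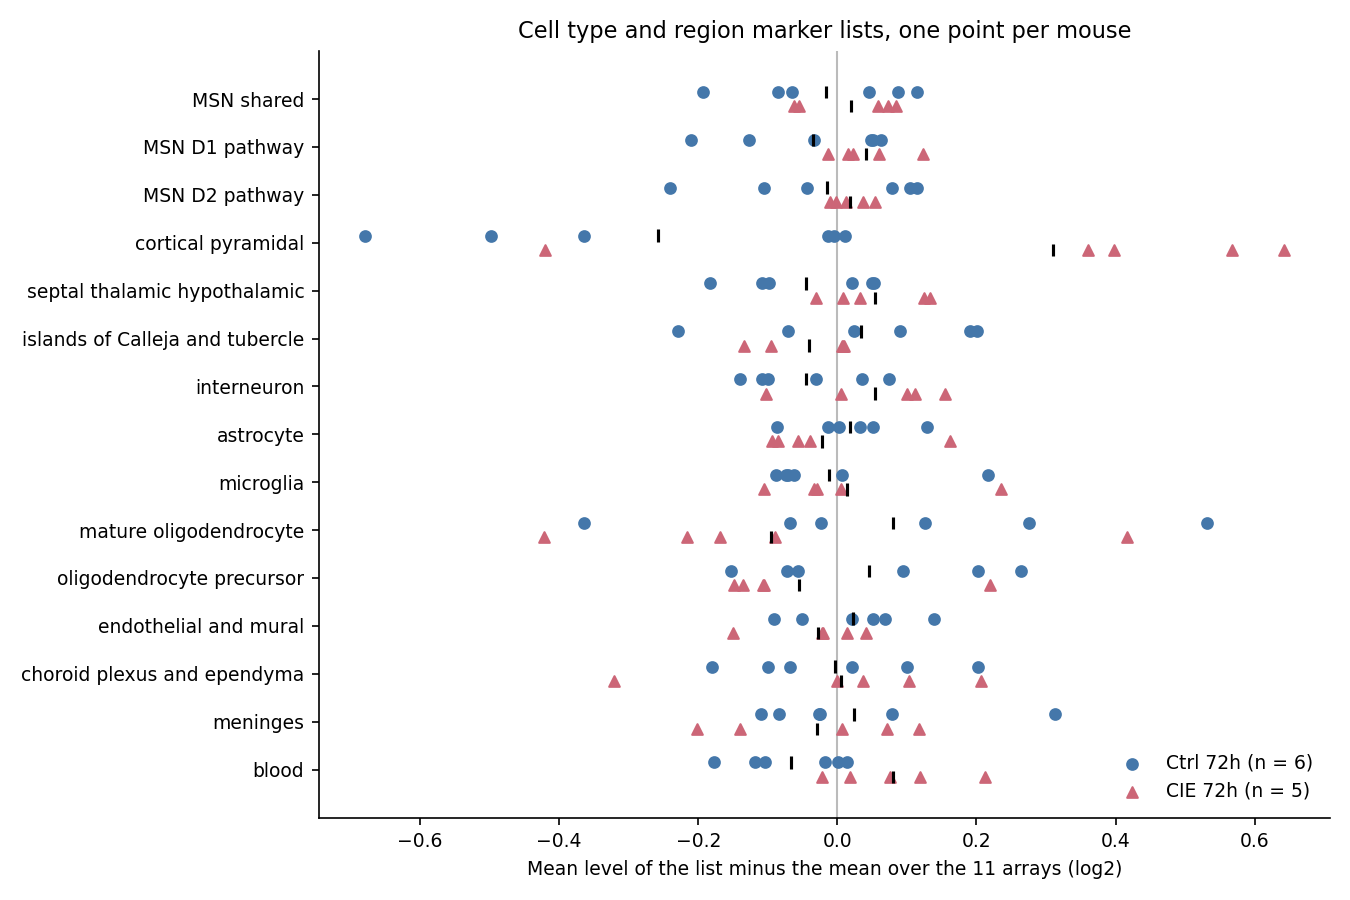
Mean level of each cell type or region marker list in each of the 11 mice at 72 h, minus the mean over the 11, in log2 units, with bars at the group means (6 Ctrl, 5 CIE). The MSN lists overlap between groups, and the cortical list is highest in 4 of 5 CIE mice and low in CIE mouse 63.

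The list that stood farthest from 0 was that of cortical and claustral glutamatergic neurons, cells of neighbouring tissue. All 16 measured markers (17 listed) were higher in CIE, with a median of 0.36 against 0.03 over all genes, and 0 passed the adjusted test. At an unadjusted p under 0.05 there were 3 of the 16, beside 4.56% of all genes. Neurod6 (chromosome 6, 55677818 to 55681263), a transcription factor of cortical pyramidal neurons, had Ctrl levels of 5.00 to 7.81 with a median of 6.97 and CIE levels of 8.63, 8.39, 8.62, 8.85 and 5.90. CIE mice 3, 29, 33 and 61 lay above every Ctrl mouse and CIE mouse 63 lay within the Ctrl range, giving a change of 1.44 (SE 0.91, adjusted p = 0.748 in limma). Tbr1 (chromosome 2, 61802863 to 61814114), which specifies deep-layer cortical neurons, had Ctrl levels of 5.59 to 7.47 with a median of 6.89 and CIE levels of 8.25, 8.46, 8.27, 8.57 and 6.46, in the same order of mice. The change was 1.35 (SE 0.78). Neurod1, a related factor, had a change of 1.18 (SE 0.56), Nrn1, a plasticity protein of excitatory neurons, 1.15 (SE 0.61), and Slc17a7, the vesicular glutamate transporter of cortex, 0.69 (SE 0.61, interval -0.54 to 1.91).

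The mean level of the cortical list was 7.83 to 8.52 in Ctrl mice and 8.91, 9.08, 8.87, 9.15 and 8.09 in CIE mice, and CIE was higher in 5 of 5 sets. Set against the other times, it was the Ctrl group that stood apart. The Ctrl mean at 72 h was 8.25, below the means of all 6 groups at other times (8.65 to 9.03), while the CIE mean of 8.82 lay among them. Neurod6 averaged 6.63 in Ctrl at 72 h, 7.57 to 8.42 in the other groups and 8.08 in CIE at 72 h. Tbr1 averaged 6.65, 7.52 to 8.35 and 8.00. Single arrays of the other times ran from 7.70 to 9.86 for the list, so that no 72 h mouse was outside the range of the series. Across the 830 genes with an unadjusted p under 0.05, the Ctrl mean at 72 h lay outside the range of the other 6 groups in 529 (63.7%) and the CIE mean in 349 (42%). Over all genes these shares were 31.3% and 24.6%. The genes were selected by the 72 h contrast, so these counts describe which side differed and test nothing.

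Other genes of large change followed the same mice. C1ql3, a secreted synapse organiser of cortical and other excitatory neurons, had Ctrl levels of 7.93 to 9.70 with a median of 9.15 and CIE levels of 10.56, 10.88, 10.35, 11.03 and 9.40. It was low in CIE mouse 63 and in Ctrl mouse 34, as the cortical list was, with a change of 1.42 (SE 0.61). Cck, a peptide of cortical and interneuron cells, had a change of 0.98 (SE 0.66). Esr1 (chromosome 10, 4611989 to 5005633), the estrogen receptor alpha of preoptic, septal and amygdalar neurons, had Ctrl levels of 6.50 to 7.03 with a median of 6.75 and CIE levels of 7.27, 7.83, 7.32, 8.09 and 7.11. Here all CIE mice were above all Ctrl mice, with a change of 0.78 (SE 0.30, adjusted p = 0.673 in limma). Esr1 had the highest change on the list of septal, thalamic and hypothalamic markers, where changes ran from -0.31 to 0.78. Of the 17 measured, 13 were higher (76.5%, beside 67.6% of all genes), with a median of 0.08. Markers of the islands of Calleja and tubercle were lower in 6 of 9, with a median of -0.06. Oxtr, the oxytocin receptor, had Ctrl levels of 5.93 to 6.88 with a median of 6.58 and CIE levels of 7.51, 8.15, 7.19, 7.92 and 6.57. The change was 0.98 (SE 0.45), and CIE mouse 63 again lay within the Ctrl range. Esr1 and Oxtr were lowest in the 72 h Ctrl group among all 8 groups, at 6.75 and 6.48. With the level of cortical relative to MSN markers as a covariate, Esr1 stood at 0.51 (SE 0.23). The cortical genes are part of that covariate, so their own values under it say nothing.

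Glial lists overlapped between the groups. Of 18 mature oligodendrocyte and myelin genes, 17 were lower in CIE with a median of -0.17, the lowest of the 37 lists. The mean level of the list at 72 h was 11.22 in Ctrl and 11.04 in CIE. Both lay above the 10.585 to 10.98 of the 6 groups at other times, with Ctrl the farther from them. Opalin, a myelin membrane protein, had Ctrl levels of 10.79 to 11.83 with a median of 11.18 and CIE levels of 10.86, 10.53, 11.01, 10.89 and 11.66. The groups overlapped, and the list was highest in Ctrl mouse 52 (11.67) and CIE mouse 63 (11.56). Its median was -0.31 without CIE mouse 63, -0.28 without Ctrl mouse 24, -0.10 without CIE mouse 29 and -0.08 without Ctrl mouse 52. Mbp, the myelin basic protein, differed by -0.06 (SE 0.05). Of 11 oligodendrocyte precursor genes 8 were lower, with a median of -0.10, and 2 were lower at an unadjusted p under 0.05, beside 0.874% of all genes. The median ran from -0.20 without CIE mouse 63 to -0.02 without Ctrl mouse 52. Cspg4 (NG2), the proteoglycan of precursors and pericytes, had Ctrl levels of 8.11 to 8.27 with a median of 8.20 and CIE levels of 7.97, 8.16, 7.86, 8.00 and 7.91, lower in CIE in 5 of 5 sets. The change was -0.22 (SE 0.07, adjusted p = 0.673 in limma). Gpr17, a receptor of precursors about to differentiate, had a change of -0.37 (SE 0.14). The Gpr17 mean of 9.79 in Ctrl lay above the 8.56 to 9.62 of the 6 groups at other times. Its CIE mean of 9.42 lay among them. For Cspg4, the Ctrl mean of 8.20 lay above the 8.03 to 8.10 of those groups and the CIE mean of 7.98 below.

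Astrocyte markers were lower in CIE in 15 of 18 genes, with a median of -0.04, and Gfap, their intermediate filament, differed by -0.09 (SE 0.28), with its highest levels in Ctrl mouse 52 (8.50) and CIE mouse 63 (8.42). Microglial markers were higher in 12 of 19 (63.2%, under the 67.6% of all genes), with a median of 0.04. Cx3cr1, the fractalkine receptor of microglia, differed by -0.21 (SE 0.16). Astrocytes and microglia were thus highest in the same pair of mice that had the highest myelin levels. Interneuron markers had a median of 0.03 over 17 genes, endothelial and mural markers -0.05 over 20, meningeal markers -0.08 over 9, and choroid plexus and ependymal markers 0.03 over 12. Ttr, the transport protein made by choroid plexus, was the gene with the largest spread between mice of a group (SD 1.55). Its Ctrl levels were 6.13 to 9.64 with a median of 8.81, and its CIE levels were 5.55, 9.36, 9.58, 6.63 and 9.24. It ranged as widely within each group as between them.

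Blood cell markers were higher in CIE in 8 of 9 genes, with a median of 0.15, beside 67.6% of all genes that were higher. At an unadjusted p under 0.05 there were 2 higher, beside 3.69% of all genes. S100a8, a calgranulin of neutrophils, had Ctrl levels of 4.41 to 4.85 with a median of 4.64 and CIE levels of 4.96, 4.77, 4.88, 5.41 and 5.12. Its partner S100a9 had Ctrl levels of 4.66 to 4.87 with a median of 4.72 and CIE levels of 4.92, 5.05, 4.83, 5.50 and 5.05. Each overlapped at a single CIE mouse, with CIE higher in 5 of 5 sets and changes of 0.37 and 0.33 (SE 0.12 each, adjusted p = 0.673 in limma). Here the CIE group stood apart. The S100a8 mean of 5.03 in CIE at 72 h was above the 4.47 to 4.71 of the 6 groups at other times, and the Ctrl mean of 4.66 lay among those. Hba-a1, a hemoglobin chain, was higher by 0.17 (SE 0.09), at levels of 4.78 to 4.94 in Ctrl and 4.94 to 5.22 in CIE, groups that touched but did not overlap. All 3 lay near the bottom of the scale.

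**Figure D3:**
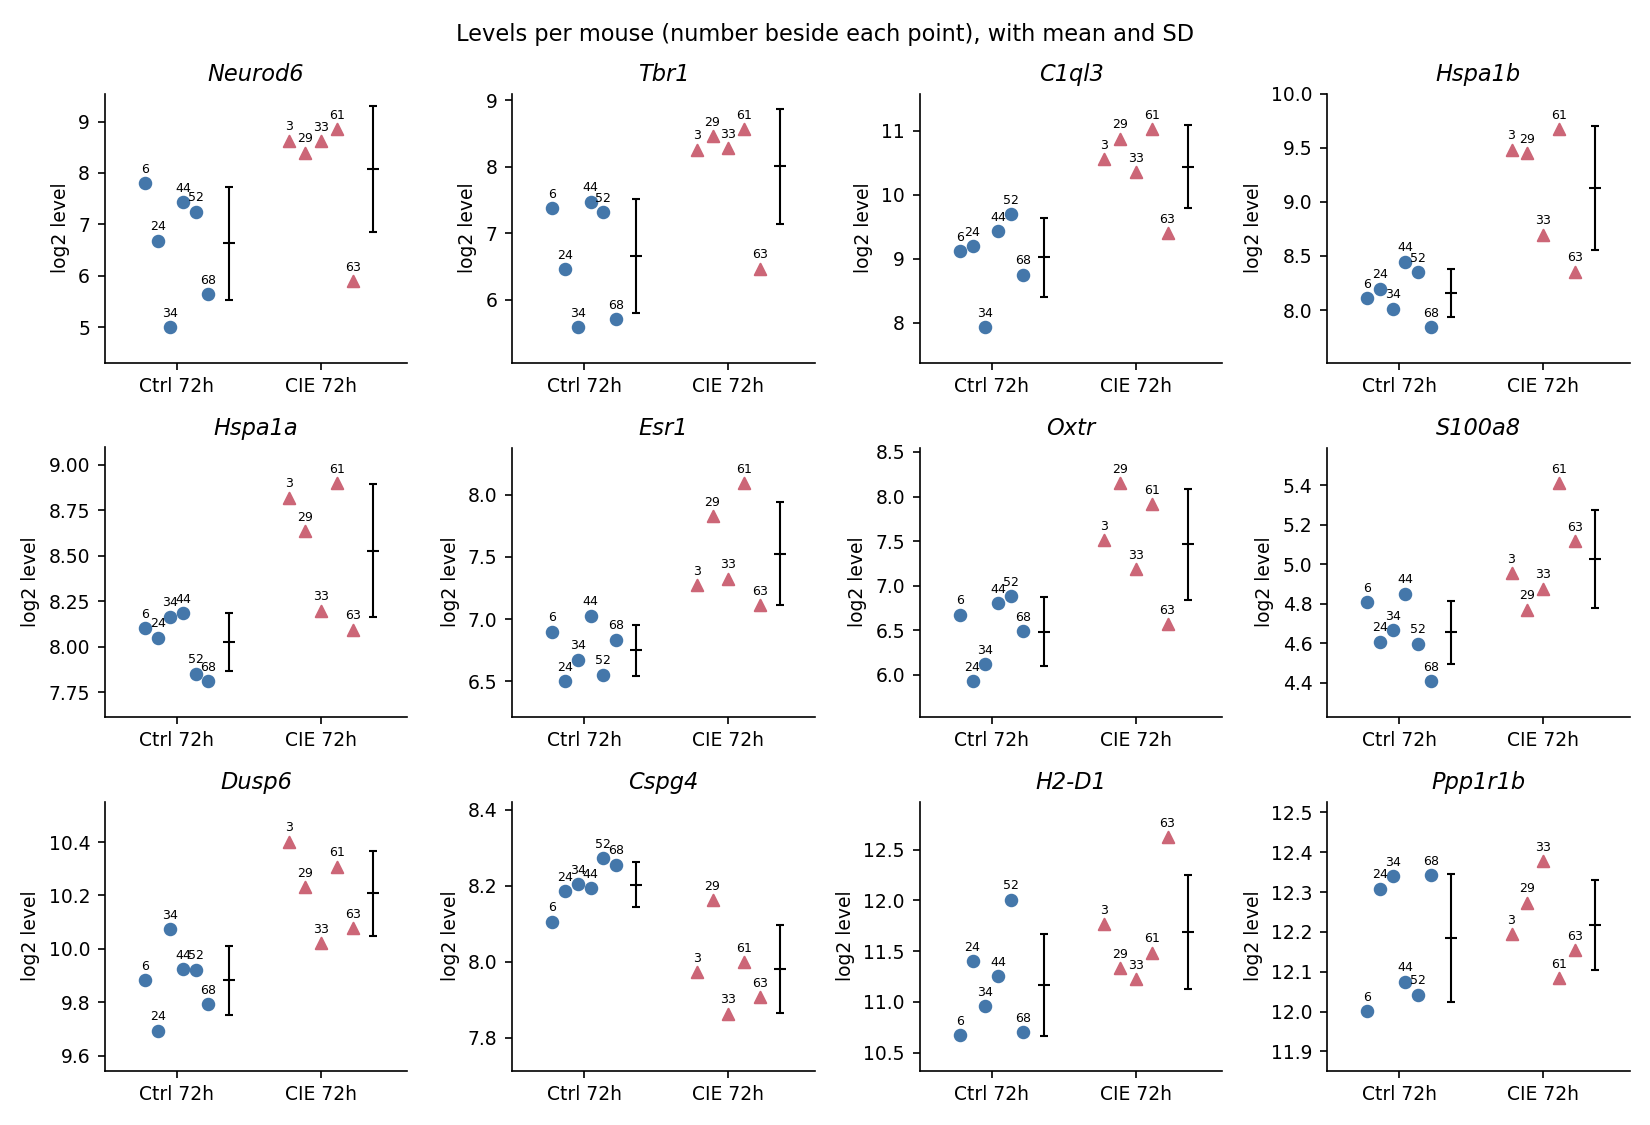
Log2 levels of 12 genes in each mouse at 72 h, labelled by mouse number, with group mean and SD (6 Ctrl, 5 CIE). Neurod6, Tbr1, C1ql3 and Oxtr share a low CIE mouse 63, Esr1 is separate between groups, and Ppp1r1b overlaps fully. The vertical scale differs between genes.

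Among 15 heat shock genes measured, the pair that encodes inducible HSP70 stood apart from the rest. Hspa1b (chromosome 17, 34956429 to 34959238, minus strand) was the more different at its brightest probeset, with Ctrl levels of 7.84 to 8.45 and a median of 8.15, and CIE levels of 9.48, 9.45, 8.70, 9.67 and 8.35. CIE mice 3, 29, 33 and 61 lay above every Ctrl mouse and CIE mouse 63 within the Ctrl range. The change was 0.97, or 1.96-fold (SE 0.45, adjusted p = 0.682 in limma), and the other probesets of the gene gave 1.14 and 1.01. Hspa1a (chromosome 17, 34969359 to 34972156, minus strand) had Ctrl levels of 7.81 to 8.18 with a median of 8.08 and CIE levels of 8.82, 8.64, 8.20, 8.90 and 8.10, a change of 0.50 (SE 0.28). CIE was higher in 5 of 5 sets for both genes. The other 13 heat shock genes differed by -0.03 to 0.13. Hspe1, the mitochondrial cochaperonin, was among them at 0.07.

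These genes are near-identical copies, so that the split of signal between them is uncertain. Their upstream sequences are shown because both genes were higher than in Ctrl in the same CIE mice and the other 13 differed little. Higher is meant against the 72 h Ctrl mice, whose means for both genes lay below those of every other group. The 250 bases before each start, from RefSeq on GRCm38.p6 and written on the minus strand, are chr17:34959239-34959488 for Hspa1b and chr17:34972157-34972406 for Hspa1a. Capitals mark GAANNTTC, a pair of inverted GAA units as found in heat shock elements, which reads the same on both strands.
Hspa1b: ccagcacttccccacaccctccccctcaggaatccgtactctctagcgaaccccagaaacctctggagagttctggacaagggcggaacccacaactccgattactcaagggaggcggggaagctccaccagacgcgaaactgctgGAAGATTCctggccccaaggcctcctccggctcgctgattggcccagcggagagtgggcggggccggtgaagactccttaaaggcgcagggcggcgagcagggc
Hspa1a: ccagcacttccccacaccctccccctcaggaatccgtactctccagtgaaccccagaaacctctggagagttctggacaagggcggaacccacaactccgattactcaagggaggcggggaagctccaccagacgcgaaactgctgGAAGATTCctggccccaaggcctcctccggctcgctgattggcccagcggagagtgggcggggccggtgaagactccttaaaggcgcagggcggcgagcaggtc
The sequences differed at 3 positions (98.8% identical), and each held the motif once. Of 32851 promoter windows of this length, 2199 (6.69%) held it, and of 19 windows of the heat shock list, from 13 genes, 6 did. A match describes letters in a window and not a bound site.

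Hspa1b also followed the pattern of the cortical list across groups. Its Ctrl mean at 72 h was 8.16, below the 8.96 to 10.04 of the 6 groups at other times, and its CIE mean was 9.13. Hspa1a had a Ctrl mean of 8.03, below the 8.47 to 9.09 of those groups, and a CIE mean of 8.53 among them. With cortical relative to MSN markers as a covariate the change of Hspa1b was 0.41 (SE 0.21, adjusted p = 0.560 in limma). Leaving out CIE mouse 63 gave 1.17. At the other times the change was 0.92 at 0 h, -0.36 at 8 h and 0.08 at 7 d. The part of tissue makeup in this difference was not tested further.

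Transmitter systems of the accumbens showed 0 called genes in any list. For dopamine, 8 of 13 genes were higher (61.5%, under the 67.6% of all genes) and 5 lower, with a median of 0.05. Slc18a2, which encodes the vesicular monoamine transporter, differed by -0.42 (SE 0.25). Its CIE levels were 6.01, 4.93, 6.06, 5.13 and 5.64 against 5.76 to 6.15 in Ctrl, and the lowest may lie near the background. CIE mice 29, 61 and 63 lay below the Ctrl range and mice 3 and 33 within it. Opioid peptides and receptors had a median of 0.06, and all 8 intervals lay within 1.5-fold. Among stress and feeding peptides the median was 0.01 over 26 genes. Crh, corticotropin-releasing hormone, differed by -0.08 with an interval of -0.87 to 0.71, so that it was poorly bounded. Ntsr2, a neurotensin receptor of astrocytes, differed by -0.13 (SE 0.05), and Ntsr1, the neuronal form, by 0.48 (SE 0.24).

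Glutamate receptors and scaffolds were higher in 21 of 29 genes (72.4%), a share near the 67.6% of all genes, with a median of 0.05 against 0.03 over all genes. Grin3a, a modulatory NMDA receptor subunit, had Ctrl levels of 7.42 to 8.06 with a median of 7.53 and CIE levels of 7.94, 8.37, 8.00, 8.45 and 7.77. The groups overlapped through Ctrl mouse 44, with a change of 0.51 (SE 0.23). Gria1, an AMPA receptor subunit, differed by 0.12 (interval -0.01 to 0.25). Among 20 GABA and glycine genes the median was 0.03, and Gad1, which makes GABA, differed by -0.07 (SE 0.05). Potassium and calcium channels were higher in 18 of 20 genes (90%), with a median of 0.08. Cacna2d1, the calcium channel subunit bound by gabapentin, had a change of 0.34 (SE 0.13), with CIE levels of 11.62, 11.95, 11.57, 11.77 and 11.32 against 11.20 to 11.41 in Ctrl. Again CIE mouse 63 was the array that overlapped. Another probeset of Cacna2d1, 1 of the 50 pairs above, had a change of -0.43 (SE 0.59), opposite in sign and poorly bounded.

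Endocannabinoid, serotonin and nicotinic genes were higher in 17 of 19 (89.5%, beside 67.6% of all genes), with a median of 0.09. Chrna7, a nicotinic receptor subunit, had Ctrl levels of 9.10 to 9.33 with a median of 9.19 and CIE levels of 9.58, 9.71, 9.70, 9.70 and 9.18. Cnr1, the CB1 receptor, had Ctrl levels of 10.54 to 11.19 with a median of 10.92 and CIE levels of 11.29, 11.52, 11.34, 11.42 and 10.81. In both, CIE mice 3, 29, 33 and 61 were above all Ctrl mice and mouse 63 was not. The changes were 0.36 (SE 0.14) and 0.38 (SE 0.20). The Cnr1 mean of 10.89 in Ctrl lay below the 11.12 to 11.60 of the groups at other times. Its CIE mean of 11.28 lay among them. Among plasticity genes the median was 0.07 over 18. Bdnf, the main neurotrophin of cortical inputs, had a change of 0.21 with an interval of -0.23 to 0.65.

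Immediate early genes, which report recent neuronal activity, were higher in CIE in 22 of 24, with a median of 0.11, beside 67.6% of all genes that were higher. At an unadjusted p under 0.05 there were 2 higher, beside 3.69% of all genes, and the median was 0.06 without CIE mouse 61 and 0.07 without Ctrl mouse 24. Dusp6, a phosphatase of the ERK pathway, had Ctrl levels of 9.69 to 10.07 with a median of 9.90 and CIE levels of 10.40, 10.23, 10.02, 10.31 and 10.08. Only CIE mouse 33 fell within the Ctrl range, and the change was 0.33 (SE 0.10, adjusted p = 0.673 in limma). The Dusp6 mean of 9.88 in Ctrl lay below the 10.01 to 10.29 of the groups at other times. Its CIE mean of 10.21 lay among them. Npas4, an activity-dependent transcription factor, had Ctrl levels of 7.28 to 8.57 with a median of 7.83 and CIE levels of 7.70, 8.12, 8.87, 8.48 and 8.63, a change of 0.47 (SE 0.23). Fos differed by 0.14 (SE 0.22) and Jun by 0.26 (SE 0.13). The median of this list was -0.30 at 0 h, -0.02 at 8 h and -0.05 at 7 d.

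Stress hormone and immune lists held 0 called genes at 72 h. Glucocorticoid-responsive genes had a median of 0.53 at 0 h and 0.36 at 8 h, and at 72 h 12 of 24 were higher and 12 lower. Gpd1, a glycerol metabolism enzyme on that list, was higher by 0.14 (SE 0.08). CIE stood at 8.68 to 8.77 and Ctrl at 8.43 to 8.65, without overlap. The Gpd1 mean of 8.58 in Ctrl lay below the 8.64 to 9.20 of the groups at other times. Its CIE mean of 8.73 lay among them. Major histocompatibility class I and interferon genes had a median of 0.14 at 72 h, with 18 of 22 higher (81.8%, beside 67.6% of all genes). The median was 0.02 without CIE mouse 63, under the 0.03 over all genes, and 0.08 without Ctrl mouse 6. At the other times it stood at 0.06 at 0 h, 0.50 at 8 h and 0.28 at 7 d. H2-D1, a class I heavy chain, had Ctrl levels of 10.67 to 12.01 with a median of 11.10 and CIE levels of 11.77, 11.33, 11.22, 11.49 and 12.62. The groups overlapped, and the change was 0.52 (interval -0.14 to 1.19), or 0.29 without CIE mouse 63. Another probeset of H2-D1, the one followed from the early times, gave 0.14 (SE 0.16). Its mean levels of 4.45 in Ctrl and 4.58 in CIE at 72 h may lie near the background, so it says little about the gene. B2m, its light chain, differed by 0.27 (SE 0.21). Class I genes are close paralogs, and their probesets may share targets.

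Cytokine and NF-kB genes were higher in 15 of 22, a share near the 67.6% of all genes, with a median of 0.05. At an unadjusted p under 0.05 there were 3 higher, beside 3.69% of all genes. Nlrp3, the inflammasome sensor, had Ctrl levels of 6.20 to 6.34 with a median of 6.30 and CIE levels of 6.50, 6.51, 6.50, 6.45 and 6.45. All CIE mice were above all Ctrl mice, with a change of 0.19 (SE 0.07, adjusted p = 0.673 in limma) and CIE higher in 5 of 5 sets. Tlr4, a receptor of bacterial lipopolysaccharide, differed by 0.16 (SE 0.07). Il1b, the cytokine that the inflammasome releases, differed by -0.07 (SE 0.10).

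Housekeeping and regulatory lists lay near 0. Median changes were 0.06 for sterol synthesis, 0.03 for Notch signalling, 0.01 for ethanol metabolism and antioxidant genes, 0.04 for the circadian clock, 0.01 for RNA splicing and 0.03 for oxidative phosphorylation. For ethanol metabolism, cytosolic ribosomal proteins, oxidative phosphorylation, sterol synthesis and the endoplasmic reticulum stress list every measured gene had its interval within 1.5-fold of no change. Sdf2l1, an endoplasmic reticulum cochaperone, was higher by 0.22 (SE 0.08). Clk1, a kinase of splicing factors, differed by -0.16 (SE 0.06), and Kdm6b, a histone demethylase, by -0.17 (SE 0.06). Across all 37 lists, 649 of 709 genes were measured and 0 were called, 29 lists had a median above 0, and in 0 lists did the mean levels of the groups separate.

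The second question was how much of the early response was still seen at 72 h. The contrasts share no arrays. Of the 717 probesets called at 0 h, 478 (66.7%) had the same sign at 72 h, against 59.4% of all probesets, and their median change at 72 h in the 0 h direction was 0.04 where the median size at 0 h had been 0.38. The share differed by direction. Of 438 probesets higher at 0 h, 348 (79.5%) were higher at 72 h, beside 68.1% of all probesets that were above 0 at 0 h, and of 279 lower at 0 h, 130 (46.6%) were lower at 72 h, beside 50.1%. The interval at 72 h held 0 for 626 of 717 (87.3%), beside 92.8% of all probesets, and excluded the 0 h size for 682. At an unadjusted p under 0.05 (limma), 78 of the 717 had changed in the 0 h direction and 13 against it. Over all 45037 probesets these counts were 2630 and 612. Sizes at 0 h are inflated by their selection. Of 28 probesets called at 8 h, 18 (64.3%) had the same sign at 72 h, with a median of 0.04 against 0.67 at 8 h. The 8 h sizes are inflated by selection too. The share over all probesets in the 8 h direction was not taken, so this count has no baseline.

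**Figure D4:**
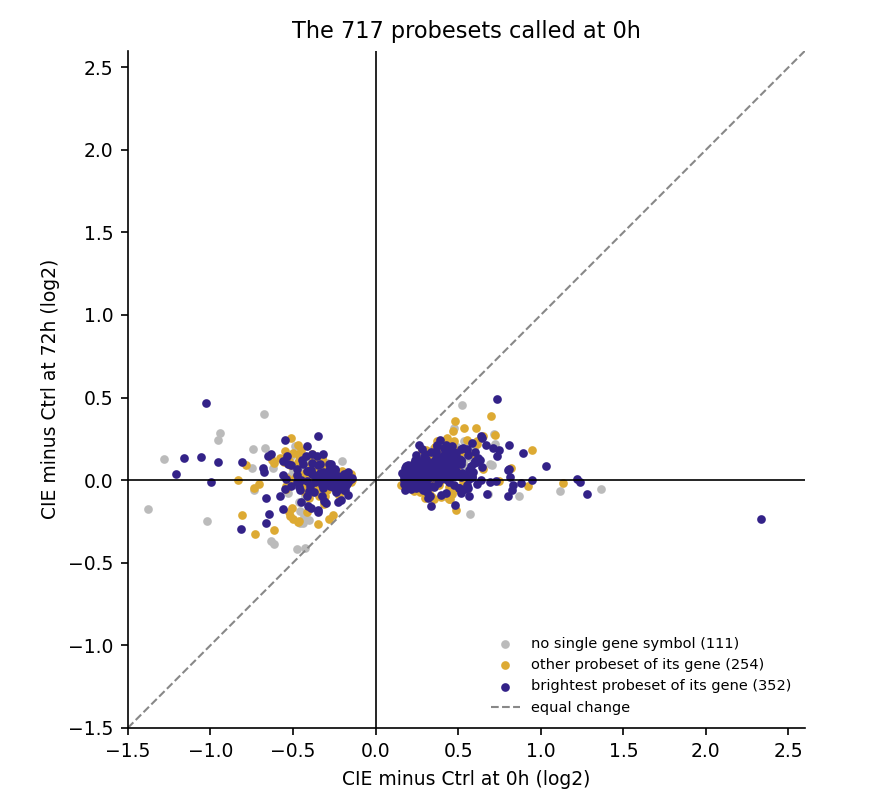
Change at 72 h against change at 0 h (both CIE minus Ctrl, log2) for the 717 probesets called at 0 h, coloured by whether the probeset is the brightest of its gene. Points lie close to the horizontal line at 0 and far from the dashed line of equal change.

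Of 28 genes followed from the early times, 0 passed the test at 72 h. Their changes ran from -0.26 to 0.47, the groups overlapped in all 28, and 26 intervals held 0. The change at 72 h differed by test from that at 0 h in 9 of the 28 and from that at 8 h in 2. For the rest a difference from the early change was not shown. Plin4, which coats lipid droplets, had a change of 2.33 at 0 h and 1.98 at 8 h. At 72 h its Ctrl levels were 6.66 to 8.02 with a median of 7.18 and its CIE levels were 6.72, 7.10, 6.67, 7.24 and 7.62, a change of -0.24 (SE 0.36). Fcrls, a microglial receptor, was lower by 1.21 at 0 h and stood at 9.35, 9.39, 9.40, 9.27 and 9.26 in CIE at 72 h against 9.10 to 9.42 in Ctrl. Its change at 72 h was 0.04 (SE 0.11). Hes5, a target of Notch in astrocytes, had -1.0 at 0 h, -1.40 at 8 h and -0.01 (SE 0.13) at 72 h. Fkbp5, a glucocorticoid target, had 0.59 at 0 h and 0.05 (SE 0.11) at 72 h. Nr2e1, a nuclear receptor of neural progenitors, had the largest 72 h change in the early direction among the followed genes, with -0.66 at 0 h, -0.81 at 8 h and -0.26 (SE 0.12, adjusted p = 0.682 in limma) at 72 h.

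**Figure D5:**
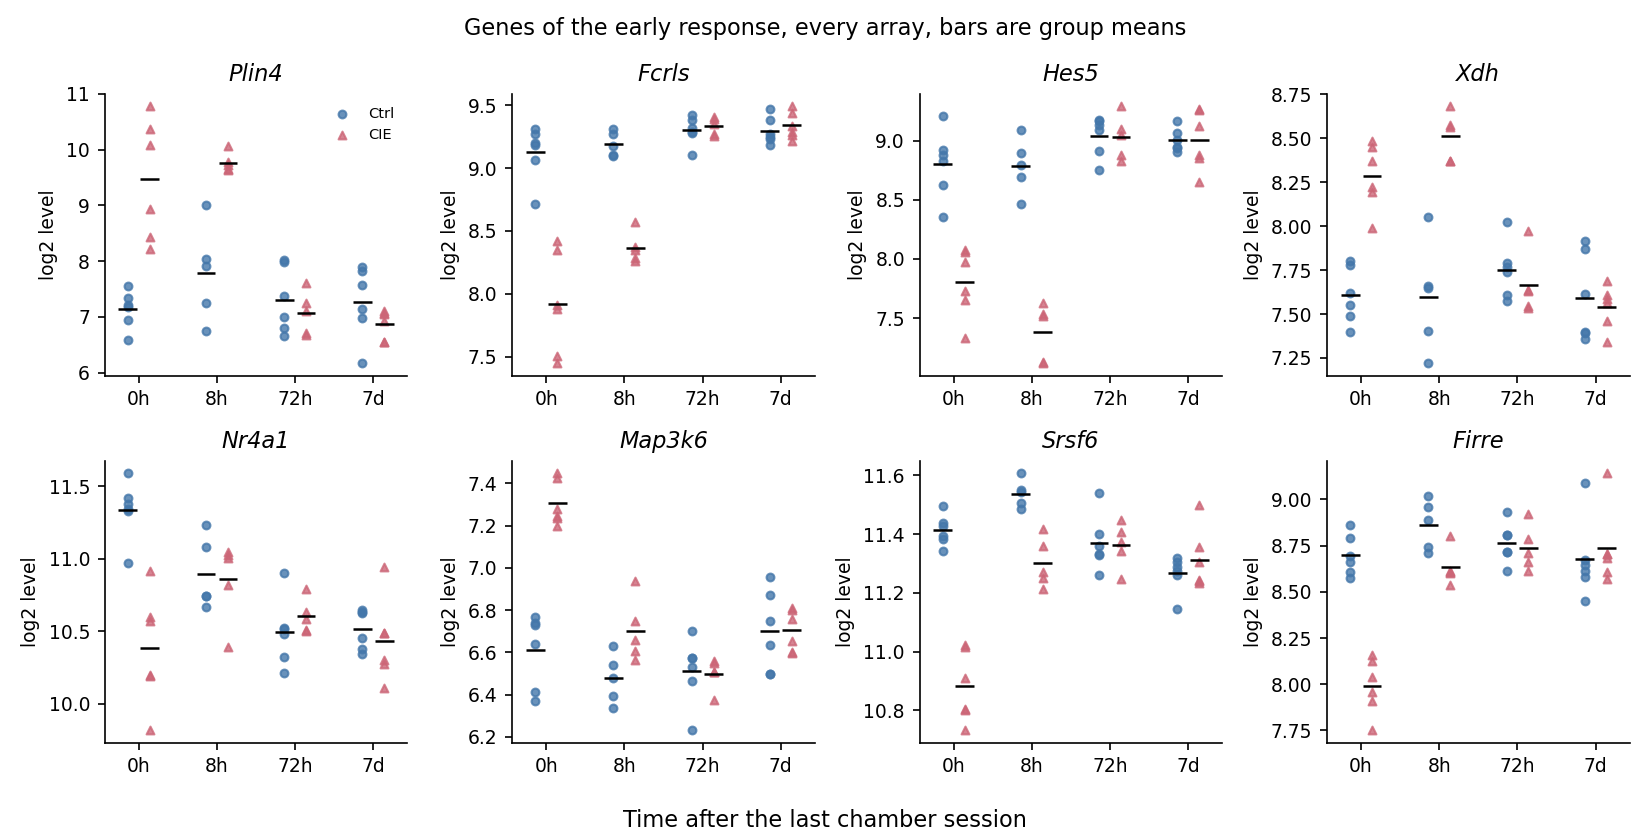
Log2 levels in every array at 0 h, 8 h, 72 h and 7 d for 8 genes of the early response, Ctrl circles and CIE triangles, with bars at the group means. The groups separate at 0 h or 8 h and overlap at 72 h. The vertical scale differs between genes.

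The difference between times was tested in the same limma fit. The change at 72 h differed from that at 0 h in 34 probesets (0.0755%), 27 of them for 26 named genes, and all 34 had been called at 0 h, 29 as lower and 5 as higher in CIE. The difference contains the 0 h change and no probeset passed at 72 h, so a call at 0 h was nearly fixed in advance. The 72 h changes of the 34 ran from -0.24 to 0.29. The clearest were Fcrls, with a difference of 1.24 (SE 0.16, adjusted p = 4.09e-05), and Srsf6, a splicing factor, with 0.53 (SE 0.07, adjusted p = 0.000182), each lower at 0 h and near 0 at 72 h. Emcn, a sialomucin of endothelium, Cep41, a centrosomal protein, and P4ha1, a collagen hydroxylase, differed in the same direction by 0.48, 0.71 and 0.51, as did Egr1, an immediate early gene, by 0.61. Map3k6, a stress kinase, differed by -0.71 after being higher at 0 h. The change at 72 h differed from that at 8 h in 3 probesets (0.00666%), Hes5 at 2 of them, with a difference of 1.39 (SE 0.19, adjusted p = 0.000465), and Xdh, xanthine dehydrogenase, with -1.0 (SE 0.17, adjusted p = 0.00703). It differed from that at 7 d in 0 probesets, with 1659 at an unadjusted p under 0.05 (3.68%) and a smallest adjusted p of 0.539. The count of 34 fell to 18 to 22 when Ctrl mouse 24, 44, 52 or 68 or CIE mouse 3 or 61 was left out.

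Markers of neighbouring tissue were among the genes with the largest spread between mice. The median SD within groups at 72 h was 0.11 over the brightest probesets, and 51 genes (0.280%) had an SD above 0.5. The 20 genes of largest spread, with SDs of 0.63 to 1.55, included Ttr, Neurod6, Tbr1, Nrn1, Cck and C1ql3. CIE mouse 63 was the lowest CIE mouse in 17 of the 20. Nr4a2, a nuclear receptor of claustral, cortical and dopamine neurons, had Ctrl levels of 6.72 to 9.44 and CIE levels of 9.13, 8.85, 8.76, 9.36 and 7.31. Slc17a6, the vesicular glutamate transporter of thalamus and hypothalamus, ran from 4.85 in Ctrl mouse 68 to 7.45 in Ctrl mouse 52, with CIE levels of 6.60, 6.44, 6.27, 6.23 and 5.93 inside that range. The 72 h groups overlapped in Nr4a2, with a change of 0.67 (SE 0.79), and in Slc17a6, with 0.19 (SE 0.42).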

How the data were processed

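The deposited table holds log2 expression levels from RMA (version not stated in the sources used here). Per their methods, background correction and quantile normalization were run within each hybridization batch, quantile normalization was repeated over all arrays, and ComBat then removed the hybridization group. ComBat can shrink or move group differences where groups are unequal within a batch. With 5 CIE and 6 Ctrl arrays, the 72 h groups cannot have been equal in every batch, but the labels name no batch. In the sets inferred from tied values, only Ctrl mouse 44 lacked a partner. Any effect of ComBat on the 72 h change was not tested. The 45037 probesets hold no controls and were neither filtered nor transformed here. Groups came from the sample titles. Platform annotation gave 34945 probesets a single symbol (18193 genes), 932 several and 9160 none. Of the first, 34741 were found in RefSeq on GRCm38.p6, the source of positions.

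Limma 3.58.1 in R 4.3.3 fitted 8 group means to all 45 arrays, without covariates, with default empirical Bayes and Benjamini-Hochberg adjustment over all probesets at 0.01. Sets were arrays sharing at least 5 values equal within 2e-08. The fit was tested on simulated data. Named genes were the 12 higher and 12 lower of smallest p, up to 4 of smallest p and the first 2 of each list, 28 followed genes, 8 per difference contrast and the 20 of largest spread. Slc1a2, Gad2, Malat1, Syt1, Hspe1 and the second probesets were added for their values. The comparison, its genes and the lists were chosen with earlier results of these data known. Alternatives were a repeated quantile normalization, median centring, trend and robust settings, arrayWeights, the sets as a block, level filters, the 72 h arrays alone, a cortical covariate, each mouse left out and, chosen after seeing the data, the probeset distance as a covariate.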

Additional observations from a re-analysis of the deposited data

Results flagged for a closer look

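Among 80 groups of 5 or 6 arrays examined, from marker lists and named genes, 7 held an array far from the rest, where chance gives about 1 in 20. In CIE mouse 63 the cortical list was at 8.09, with the next CIE mouse at 8.87, the astrocyte list at 11.32, the oligodendrocyte precursor list at 10.09 and A830018L16Rik at 9.07. Ctrl mouse 52 had the highest microglial level of its group, at 9.70. The remaining ones were 2610301B20Rik at 3.44 in CIE mouse 3 and Rwdd4a at 9.40 in Ctrl mouse 6.

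The change at 72 h differed by test (limma) from that at 0 h for Fcrls by 1.24, Srsf6 by 0.53, Emcn by 0.48, Cep41 by 0.71, P4ha1 by 0.51, Map3k6 by -0.71, Ncbp2 by 0.35 and Egr1 by 0.61, and from that at 8 h for Hes5 by 1.39 and Xdh by -1.0. In each case the early change was the larger one, which was nearly fixed in advance because no probeset passed at 72 h.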

How the results depend on the processing

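The count of 0 calls at 72 h held under every alternative but arrayWeights, which gave 20. Among fits to all probesets, unadjusted counts ran from 1768 with the probeset distance as covariate to 8369 with arrayWeights, and there were 859 at brightest probesets alone and 1571 above the median level, and the smallest adjusted p from 0.00893 with arrayWeights to 0.999583 without Ctrl mouse 52. All of the 24 named genes present kept their sign under every alternative. They were selected for the smallest p in this contrast and the alternatives reuse the same arrays, so a kept sign is no support for them. Medians of lists, mostly close to 0, did not: 25 of 37 had the same sign with the probeset distance, 31 without CIE mouse 63 and 33 with arrayWeights or without Ctrl mouse 52. The 34 probesets that differed between 72 h and 0 h became 77 with arrayWeights, 15 with the sets as a block, 52 among probesets above the median level, 19 at brightest probesets and 93 with the probeset distance, and 18 to 43 with a mouse left out. The 3 against 8 h became 17 with arrayWeights and 2 to 3 with a mouse left out. Against 7 d and at 72 h the count was 0 to 0 with a mouse left out. The share of 0 h calls with the same sign (66.7%) was 62.5% with arrayWeights and 62.5% with the sets as a block, and 64.4 to 67.8% with a mouse left out. The share of intervals within 1.5-fold (93.0%) was 94.2% with arrayWeights, 92.4% with the sets as a block, 91.6% above the median level, 96.4% at brightest probesets, 94.7% in the 72 h arrays alone, 93.8% with the cortical covariate and 97.3% with the probeset distance, and 91.9 to 93.3% with a mouse left out. Lists with a median above 0.1 in size numbered 6, 10 above the median level and 4 to 9 with a mouse left out. No mouse number is shared between groups, so the sets inferred from tied values were the only block that could be tried. Low array signal, unknown detection and 5 or 6 mice limit small changes.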
